A study of Homo sapiens with 3 samples.

Results

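Transcripts of 33 genes that build the junctions between epithelial cells were followed across 3 arrays of a transfected squamous carcinoma cell line. The genes were listed by junction type, 11 for desmosomes, 8 for adherens junctions, 10 for tight junctions and 3 for gap junctions, together with the adhesion molecule EPCAM. A gene was followed through the probe sets annotated to its symbol alone, which gave 45 probe sets for 29 of the 33 genes, out of 22283 probe sets on the array. CTNND1 had probe sets shared with a read-through transcript, and F11R, CGN and GJB2 were not analysed here. Of the 29 genes, 24 lay above a floor of 28.3 signal units, the pooled median of all values, on at least 1 array, as did 7986 of the 11963 genes with a probe set in the whole data set.

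The cells were CAL 27, an established line from a poorly differentiated squamous carcinoma of the tongue, and all 3 populations were grown in serum-supplemented medium and carried a stably transfected EGFP plasmid. The nm23-H1 array came from cells overexpressing GFP-Nm23-H1, the nm23-H2 array from cells overexpressing nm23-H2 out of pEGFPC1, and the vector array from cells overexpressing GFP alone. Nm23-H1 and Nm23-H2 are nucleoside diphosphate kinases, and nm23-H1 is known as a metastasis suppressor gene. The nm23-H1 cells are described as clones, without their number, and the vector cells as 1 clone, so construct and clone cannot be told apart.

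Epithelial cells are held together by 4 kinds of junction. Desmosomes tie the keratin filaments of neighbouring cells to each other through desmogleins and desmocollins, which are cadherins of the desmosome, and through the plaque proteins plakoglobin, plakophilins and desmoplakin. Adherens junctions join the actin cytoskeletons through classical cadherins and catenins, tight junctions seal the space between cells with claudins and occludin held by scaffold proteins, and gap junctions are channels made of connexins through which small molecules pass. Squamous epithelium is rich in desmosomes, and loss of E-cadherin is a known feature of invasive carcinoma cells.

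Each group had 1 array, so the spread between replicates is unknown and no test was run. The 2 comparisons with vector share the vector array, so 1 vector value enters both differences of a gene. Signals were scaled to a common trimmed mean, values below the floor were set to it, and differences are on the log2 scale, where 1 is 2-fold. Error could be measured only from how far 2 probe sets of the same gene disagreed, both above the floor on the arrays compared. It is given per probe set, as the SD of that disagreement (log2) over the square root of 2. It was 0.33 when nm23-H1 was set against vector, 0.35 when nm23-H2 was, and 0.38 between the nm23 arrays. The number of arrays limits the precision. The transcript of the construct was highest on its own array, since NME1 (nm23-H1) had 2379 signal units there, 1132 with nm23-H2 and 1519 with vector, and NME2 (nm23-H2), read together with its read-through from NME1, had 2323, 4845 and 2272 in the same order. Of 8 epithelial markers listed, 5 were analysed: KRT5, KRT14, SFN, EPCAM and CDH1. They were above the floor on all 3 arrays, with KRT5 between 8543 and 11699 signal units. EPCAM and CDH1 are also members of the junction list. Taking every probe set of a gene, 3 of 7 fibroblast, 2 of 3 leukocyte and 3 of 4 endothelial markers were at the floor on all 3 arrays. The highest value of any of them was COL1A1 by a probe set marked for possible cross-hybridisation, at 168, 152 and 123 signal units on the nm23-H1, nm23-H2 and vector arrays, while its other 3 probe sets were at the floor.

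The junction genes that differed by 2-fold or more in a comparison belonged to tight junctions, gap junctions and the desmosome plaque. Against vector, 18 of 24 lay within 1.5-fold with nm23-H1 and 18 with nm23-H2, beside 6696 and 6004 of all 7986 genes. With nm23-H1, the claudin genes CLDN1 and CLDN4 were at least 2-fold higher than with vector and no junction gene was at least 2-fold lower. With nm23-H2, the connexin gene GJB5 passed 2-fold upward and CXADR, which encodes an adhesion protein of tight junctions, downward. In RNA from a whole culture, fewer cells with a transcript and less of it per cell cannot be told apart.

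**Figure D1:**
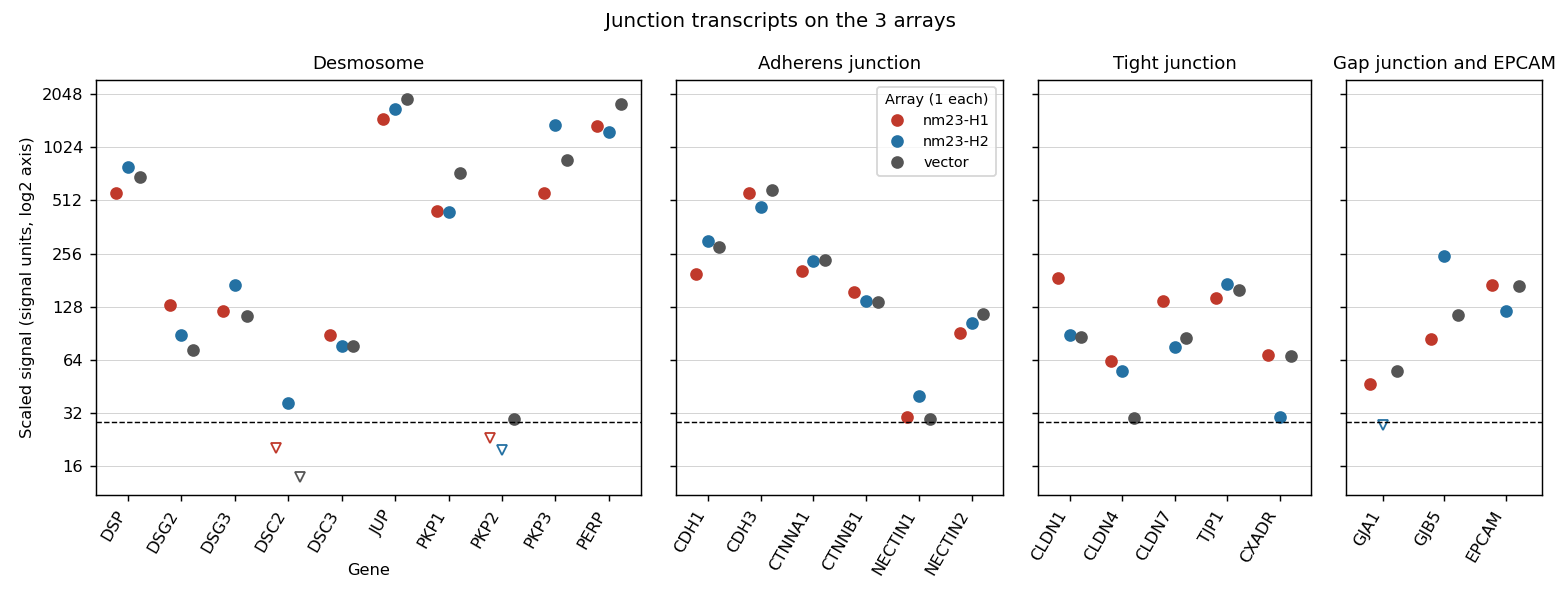
Scaled signal (signal units, log2 axis) of the 24 junction genes above the floor on at least 1 array, by junction type. Each point is 1 array (red nm23-H1, blue nm23-H2, grey vector), the dashed line is the floor of 28.3, and open triangles lie at or below it. The spacing of the 3 points within a gene shows the differences, while heights of different genes are not comparable because each has its own probes. CLDN1 stands apart on the nm23-H1 array (185 against 86.3 on the vector array) and GJB5 on the nm23-H2 array (248 against 114).

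For nm23-H1 against vector, 2 of 24 junction genes (8.33%) were at least 2-fold higher, where 2.14% of all 7986 genes were, and 0 of 24 were at least 2-fold lower, where 1.73% of all genes were. At 1.5-fold, 4 (16.7%) were higher, namely CLDN1, CLDN4, CLDN7 and DSG2, beside 8.63% of all genes. PKP1 and PKP3 were the 2 (8.33%) at least 1.5-fold lower, beside 7.53% of all genes. The median difference of the 24 was -0.06 (log2), beside 0 for all genes. The members were chosen with earlier results of these data known. Their shares, here and below, therefore describe the list and are no test of it.

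For nm23-H2 against vector, GJB5 was the 1 of 24 (4.17%) that was 2-fold or more higher and CXADR the 1 (4.17%) that was 2-fold or more lower, beside 3.59% and 3.61% of all genes. At 1.5-fold, 3 (12.5%) were higher, namely GJB5, CLDN4 and PKP3, and 3 (12.5%) lower, namely CXADR, GJA1 and PKP1, beside 10.6% and 14.2% of all genes. These shares lie near the background. After scaling, fewer probe sets lay above the floor on the nm23-H2 array (47.4%) than on the vector (50.9%) or nm23-H1 array (51.6%). The part of this in the lower values of weak signals was not tested. The median was 0.01, beside -0.06 for all genes. This comparison depended on scaling: with the values as deposited the median of all genes was 0.17, 7.98% of them passed 2-fold upward and 1.35% downward, and the 2-fold junction genes were CLDN4 and GJB5, both higher.

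Between the nm23 arrays, 2 of 24 (8.33%) were at least 2-fold higher with nm23-H1, CLDN1 and CXADR, and 2 (8.33%) at least 2-fold lower, GJB5 and PKP3. All genes gave 3.76% and 3.81%. At 1.5-fold, 4 (16.7%) were higher, with CLDN7 and GJA1 added, and 3 (12.5%) lower, with CDH1 added, beside 16.3% and 10.6% of all genes. CDH1 passed by the probe set used (-0.62) alone, as its other probe set gave 0.17. The median was 0.01, beside 0.08 for all genes. As this comparison reuses the arrays of the other two, it adds no separate measurement. With the values as deposited the median of all genes was -0.07, 2.15% of them passed 2-fold upward and 6.28% downward, and the 2-fold junction genes were GJB5 and PKP3, both lower.

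**Figure D2:**
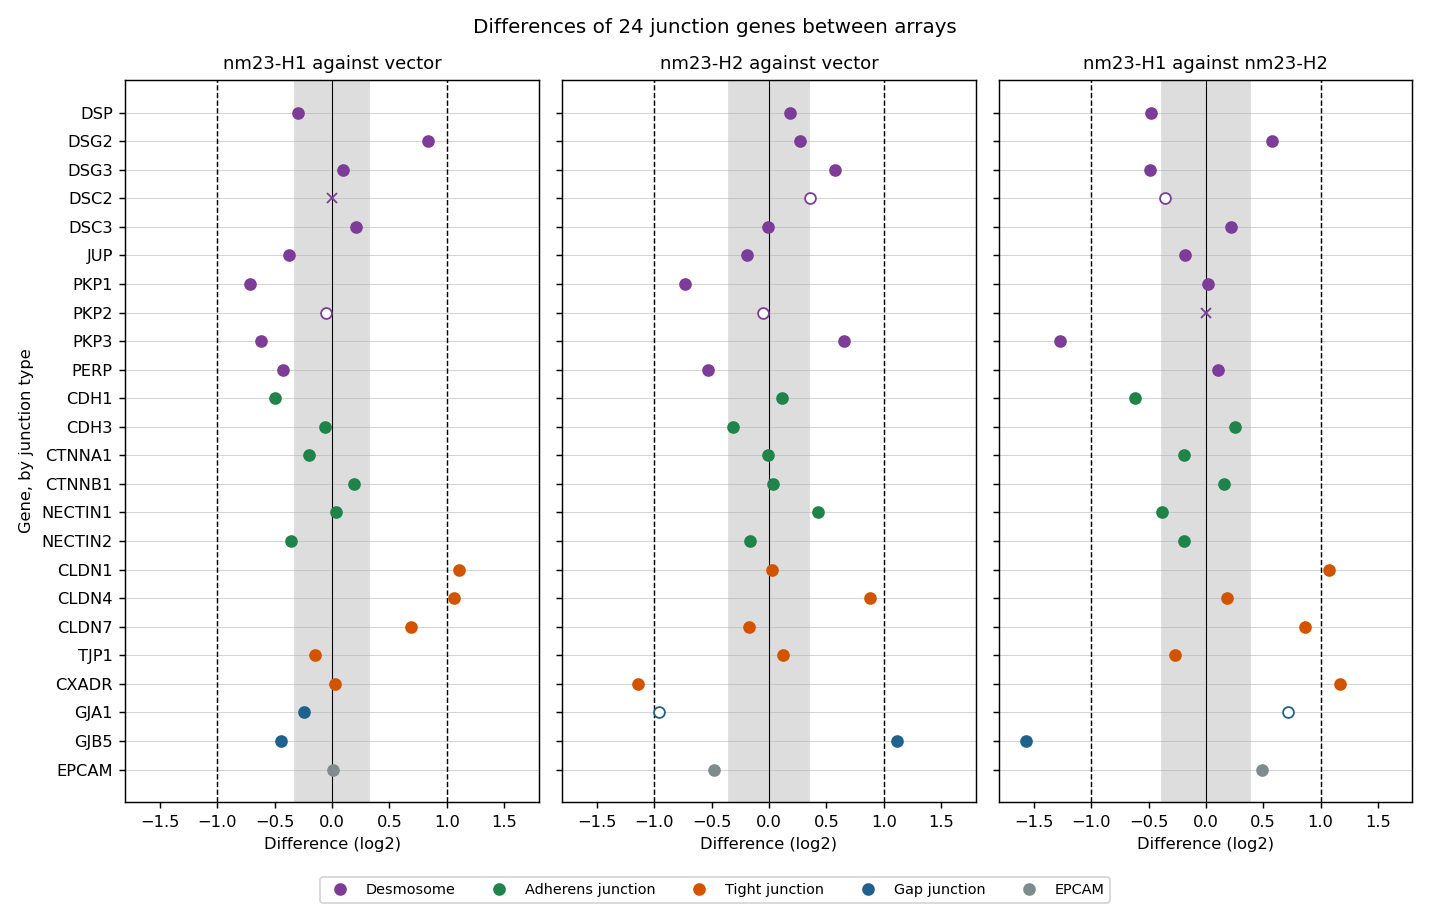
Log2 difference of each of the 24 junction genes in the 3 comparisons, coloured by junction type. Dashed lines mark 2-fold, and the grey band is the probe set error (0.33, 0.35 and 0.38). This error is the SD of the disagreement between 2 probe sets of a gene over the square root of 2. Open points are bounds because 1 of the arrays was at the floor, and crosses had both arrays at the floor. The 6 adherens genes stay within 1.5-fold against vector, while CLDN1 and CLDN4 pass 2-fold with nm23-H1 and GJB5 and CXADR pass it with nm23-H2.

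Among the tight junction genes, the 3 claudin genes above the floor were at least 1.5-fold higher with nm23-H1 than with vector, and the other 2, TJP1 and CXADR, were within 1.5-fold. CLDN1, a claudin of stratified epithelium that is needed for the barrier of skin, had 185 signal units with nm23-H1, 88.2 with nm23-H2 and 86.3 with vector. This is 2.15 times the vector level with nm23-H1 (log2 1.10, 125th highest of 7986 genes) and 1.02 times with nm23-H2. The nm23-H1 array alone stood apart. CLDN4, a claudin that limits the passage of ions, had 62.9, 55.4 and 30.1 signal units on the nm23-H1, nm23-H2 and vector arrays, 2.09-fold (nm23-H1) and 1.84-fold (nm23-H2) above vector. Both nm23 arrays were higher, but the vector value lay only just above the floor of 28.3, and with a floor at the 70th percentile (66.2 signal units) all 3 arrays were at the floor and the differences were 0. CLDN7, which also lies along the lateral membrane, had 138, 75.8 and 85.5 signal units on the same arrays. With nm23-H1 it was 1.61-fold higher than vector, and its log2 difference with nm23-H2 was -0.17. The median of the 5 tight junction genes above the floor was 0.69 (log2) with nm23-H1 and 0.03 with nm23-H2. Of 6 further claudin genes above the floor, not among the 33, 0 were 1.5-fold higher with nm23-H1, beside 8.63% of all genes. At that rate few of 6 genes would be counted, and the highest signal of any of them was 57.1 (CLDN11, vector array). CLDN6, CLDN9 and CLDN11 were at -0.29, -0.11 and -0.01, and CLDN10 at 0.39. CLDN18, at the floor with vector, was at 0.14 or more, while CLDN17 was at the floor on both arrays.

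Against vector, TJP1 and CXADR did not follow the claudins with nm23-H1. Between the nm23 arrays, CXADR (log2 1.17) was higher with nm23-H1, as were CLDN1 (1.07), CLDN7 (0.86) and CLDN4 (0.18). TJP1 was at -0.27 there. The median of the 5 tight junction genes above the floor was 0.86 in that comparison, beside 0.08 for all genes. CXADR, the coxsackievirus and adenovirus receptor, had 68.3 signal units with nm23-H1, 30.3 with nm23-H2 and 67.0 with vector. It was 2.21-fold lower with nm23-H2 (log2 -1.14, 174th lowest of 7986) and differed by 0.03 with nm23-H1. The nm23-H2 value was close to the floor. The difference was under 2-fold with the values as deposited (-0.82), quantile normalization (-0.98), 16 units added in place of a floor (-0.84) and the floor at the 70th percentile (-0.02). TJP1, the scaffold ZO-1 that links claudins to actin, had 143, 172 and 159 signal units on the nm23-H1, nm23-H2 and vector arrays, with differences of -0.15 and 0.12 from vector. OCLN (occludin), CLDN3 and TJP3 (ZO-3) were below the floor on all 3 arrays, so no difference could be measured for them at that floor. With the floor at the 25th percentile, OCLN and TJP3 passed 2-fold, higher with nm23-H1 than with nm23-H2. Their signals were 27.5 against 13.3 (OCLN) and 18.8 against 9.16 (TJP3). The other TJP3 probe set went the opposite way, at 2.87 against 7.40 signal units.

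The promoters of the claudin pair are shown because CLDN1 and CLDN4 were the junction genes at least 2-fold higher with nm23-H1. The sequences are the 250 bases before the annotated transcript start, from RefSeq in build GRCh38.p14, read 5′ to 3′ on the gene's own strand. CLDN1 lies on the minus strand at chr3:190322447-190322696 and CLDN4 on the plus strand at chr7:73830746-73830995. Capitals mark matches, on either strand, to 5 motifs that were searched: the AP-1 site TGANTCA, the E-box CAGGTG that SNAI and ZEB repressors bind, the grainyhead site AACCNGTT, the GC box GGGCGG and the TATA core TATAA. No match overlapped another.
CLDN1: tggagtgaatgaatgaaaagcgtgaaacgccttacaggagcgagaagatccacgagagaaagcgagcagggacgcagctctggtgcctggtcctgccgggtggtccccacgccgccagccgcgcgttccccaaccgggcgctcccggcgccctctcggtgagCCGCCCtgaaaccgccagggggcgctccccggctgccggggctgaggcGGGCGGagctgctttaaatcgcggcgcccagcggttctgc
CLDN4: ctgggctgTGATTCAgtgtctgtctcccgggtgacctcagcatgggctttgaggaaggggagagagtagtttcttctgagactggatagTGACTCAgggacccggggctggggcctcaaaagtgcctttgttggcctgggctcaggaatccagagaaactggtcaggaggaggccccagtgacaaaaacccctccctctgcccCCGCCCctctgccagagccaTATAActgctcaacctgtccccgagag

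These 2 stretches differed in composition and in their matches. CLDN1 held 28 CpG dinucleotides and 68.8% G and C, and CLDN4 held 4 and 58.8%. The CLDN1 stretch had GC boxes beginning 88 and 40 bases before the start and none of the other motifs. The CLDN4 stretch had AP-1 sites beginning 242 and 161 bases before the start, a GC box at 47 and a TATA core at 27. Neither stretch held the E-box or the grainyhead site. Of 6580 promoters of genes above the floor, taking the first listed for each gene, 4.22% held the AP-1 site, 65.7% the GC box, 12.01% the TATA core, 15.5% the E-box and 1.03% the grainyhead site. Among 23 junction promoters in the table, 3 held the AP-1 site, 18 the GC box, 4 the TATA core, 7 the E-box and 1 the grainyhead site. Of all 27305 promoters in the table, 6.60% held the AP-1 site, 42.3% the GC box, 19.6% the TATA core, 17.5% the E-box and 1.48% the grainyhead site. A match gives the letters alone and no evidence of binding. Promoters of GJB5, CXADR, PKP3, CDH1, CDH3, PKP2, EPCAM, NECTIN1, CTNND1 and F11R were not in the table used, so the 23 leave these genes out.

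The connexin genes moved apart on the nm23-H2 array. GJB5, which encodes a connexin of stratified epithelium, had 83.8 signal units with nm23-H1, 248 with nm23-H2 and 114 with vector. It was 2.17-fold the vector level with nm23-H2 (log2 1.12, 218th highest of 7986), and its log2 difference with nm23-H1 was -0.45. The nm23-H2 value was the highest and the nm23-H1 value the lowest, and nm23-H1 was 2.97-fold below nm23-H2 (log2 -1.57, 105th lowest). GJB5 was at least 2-fold higher with nm23-H2 in all 10 alternative settings, with differences between 1.02 and 1.45. GJA1, connexin 43, the widespread connexin of many tissues, had 46.6, 27.3 and 55.0 signal units on the nm23-H1, nm23-H2 and vector arrays. Its nm23-H2 value was below the floor, so it was lower than vector by at least 1.94-fold, and its difference with nm23-H1 was -0.24. GJA1 and GJB5 thus lay on opposite sides of vector with nm23-H2, GJA1 at signals close to the floor.

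Of the 10 desmosome transcripts above the floor on at least 1 array, 0 were 2-fold different from vector, a count near the background shares given above, and their median differences were -0.18 with nm23-H1 and 0.09 with nm23-H2. Among the plaque proteins, DSP, desmoplakin, which anchors keratin filaments, had 566 signal units with nm23-H1, 790 with nm23-H2 and 695 with vector. JUP, plakoglobin, which binds the desmosomal cadherins, had 1491, 1694 and 1932 on the same arrays. Their differences from vector were -0.30 and -0.37 with nm23-H1, and 0.18 and -0.19 with nm23-H2. Each was of about the size of the probe set error given above, or smaller.

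The plakophilins, armadillo proteins that link cadherins to desmoplakin, included the genes at least 1.5-fold lower with nm23-H1, PKP1 and PKP3. PKP1, the plakophilin of differentiated squamous layers, had 445 signal units with nm23-H1, 439 with nm23-H2 and 728 with vector, with differences of -0.71 and -0.73 from vector. Its second probe set gave -0.32 and -0.38. Both nm23 arrays were thus lower by both probe sets, and the 2 comparisons share the vector array. PKP3, found in all epidermal layers, had 564 signal units with nm23-H1, 1362 with nm23-H2 and 868 with vector. Its differences from vector were -0.62 with nm23-H1 and 0.65 with nm23-H2, and nm23-H1 was 2.41-fold below nm23-H2 (log2 -1.27). The second PKP3 probe set, at 148, 155 and 172 signal units, gave -0.22, -0.15 and -0.06 for these comparisons, and with the mean of both probe sets nm23-H1 against nm23-H2 was -0.67. The 2-fold difference of PKP3 therefore rests on 1 probe set. PKP2, the plakophilin known from heart muscle and simple epithelium, was above the floor on the vector array alone, at 29.4 signal units.

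The desmosomal cadherin genes, which lie beside each other on chromosome 18, differed one by one. DSG2, the desmoglein of simple epithelia and basal cells, had 131 signal units with nm23-H1, 87.9 with nm23-H2 and 73.1 with vector. With nm23-H1 it was 1.79-fold the vector level (log2 0.84), and the difference with nm23-H2 was 0.27. DSG3, the antigen of pemphigus vulgaris and a desmoglein of the lower layers of mucosa, had 121, 169 and 114 signal units on the same arrays, with differences of 0.09 and 0.58. The desmogleins therefore had their highest values on different arrays. DSC3, a desmocollin of basal layers, had 88.9, 76.5 and 76.7 signal units, and its difference with nm23-H1 was 0.21 by the probe set used and -0.14 by the other. DSC2, the most widespread desmocollin, was above the floor on the nm23-H2 array alone, at 36.4 signal units. This was at least 1.28-fold higher than with vector, and 1.38 on the log2 scale when the floor was lowered to the 25th percentile. The other DSC2 probe set, marked for possible cross-hybridisation, was below the floor on all 3 arrays. It had 27.7, 9.60 and 25.9 signal units on the nm23-H1, nm23-H2 and vector arrays, lowest with nm23-H2, so the direction was not shared. DSG1, the desmoglein of the upper epidermis, was below the floor on all 3 arrays, with at most 8.72 signal units. PERP, a p53 target and membrane protein of desmosomes, had 1347, 1252 and 1813 signal units on the nm23-H1, nm23-H2 and vector arrays and differences of -0.43 and -0.53.

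Of the 6 adherens junction transcripts above the floor, 0 were 1.5-fold different from vector on either nm23 array, and 1, CDH1, was between the nm23 arrays. Of all genes, 8.63% were 1.5-fold higher and 7.53% lower with nm23-H1, and 10.6% and 14.2% with nm23-H2. Between the nm23 arrays, 16.3% were higher with nm23-H1 and 10.6% lower. At these background rates few of 6 genes would be counted. CDH1, which encodes E-cadherin, the adhesion receptor of adherens junctions, had 196 signal units with nm23-H1, 301 with nm23-H2 and 277 with vector, with differences of -0.50 and 0.12. Its second probe set, at 41.7, 37.0 and 32.9 signal units, gave 0.34 and 0.17, so the direction with nm23-H1 was not shared by the probe sets. In nm23-H1 against nm23-H2 the 2 probe sets gave -0.62 and 0.17, and their mean -0.22, so that direction was not shared either. CDH3, P-cadherin of basal keratinocytes, had 563, 472.5 and 589 signal units on the nm23-H1, nm23-H2 and vector arrays and differences of -0.07 and -0.32. Neither cadherin gene stood apart from vector by 2-fold in any setting tried.

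CTNNB1 and CTNNA1, catenins that join cadherins to actin, were within 1.5-fold of vector by the probe sets used. CTNNB1, beta-catenin, also the effector of Wnt signalling, had 155, 138 and 135 signal units on the nm23-H1, nm23-H2 and vector arrays, with differences of 0.19 and 0.03. CTNNA1, alpha-catenin, had 204, 232 and 234 signal units by the probe set used and differences of -0.20 and -0.01. Its further 3 probe sets gave between -0.22 and -0.11 with nm23-H1, and -0.25, 0.47 and 0.72 with nm23-H2. The higher 2 of these came from probe sets whose names mark possible cross-hybridisation (_x_at). Both were brighter than the probe set used, at 703 (nm23-H2) against 507 (vector) and 477 against 290 signal units. The second of them passed 1.5-fold. CTNND1, p120-catenin, which keeps cadherins at the membrane, has 3 probe sets that also match the TMX2-CTNND1 read-through, and they gave between -0.20 and 0.07 with nm23-H1 and between -0.20 and -0.02 with nm23-H2.

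The nectins, immunoglobulin-like adhesion proteins that recruit afadin to the junction, were also close to vector. NECTIN2 had 90.6, 103 and 116 signal units on the nm23-H1, nm23-H2 and vector arrays, with differences of -0.35 and -0.16. NECTIN1, at 30.5, 39.8 and 29.7 signal units, lay just above the floor, with differences of 0.04 and 0.42. AFDN, afadin, was below the floor on all 3 arrays. EPCAM, a calcium-independent adhesion molecule of carcinoma cells that binds CLDN7, had 169, 120 and 168 signal units on the nm23-H1, nm23-H2 and vector arrays. It was level with nm23-H1 (0.01) and at -0.48 with nm23-H2, within 1.5-fold of vector.

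Agreement between probe sets could be tested for 6 of the genes, each with 2 to 4 probe sets above the floor on all 3 arrays. For TJP1, DSC3 and PKP1 they differed by at most 0.39 in any comparison. For PKP3, CDH1 and CTNNA1 they differed by up to 1.21, 0.85 and 0.995. CLDN1, CLDN4, CLDN7, CXADR, GJB5, GJA1 and DSG2 each had 1 probe set, so that the differences of 2-fold from vector had no such check.

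**Figure D3:**
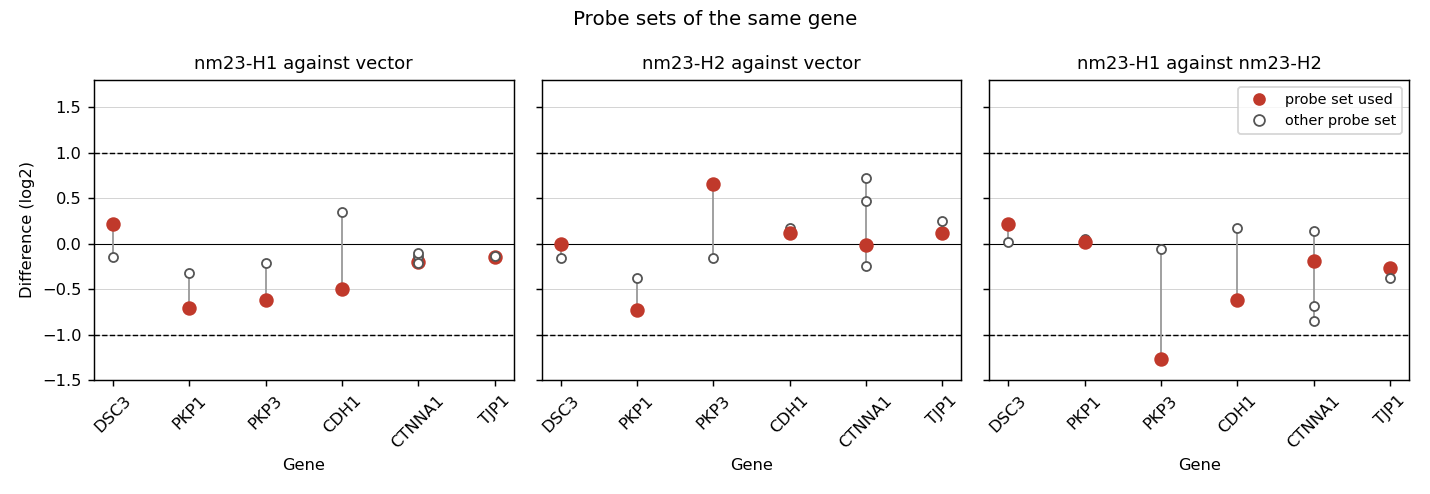
Log2 difference by each probe set of the 6 junction genes with at least 2 probe sets above the floor on all 3 arrays. Filled red points are the probe set used, open points the other probe sets, grey lines their range, and dashed lines 2-fold. PKP3 in nm23-H1 against nm23-H2 is the case where the probe set used (-1.27) passes 2-fold and the other (-0.06) does not.

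Neighbours on the chromosome were read as well, as a description of the region around each. The medians of up to 50 neighbouring genes above the floor were -0.07 for CLDN1 (chromosome 3), 0.05 for CLDN4 (chromosome 7), 0.09 for CLDN7 (chromosome 17) and 0.00 for DSG2 (chromosome 18) in nm23-H1 against vector. In nm23-H2 against vector they were -0.13 for CXADR (chromosome 21) and 0.20 for GJB5 (chromosome 1). For PKP3 (chromosome 11) the neighbours had a median of 0.11 in nm23-H1 against nm23-H2.

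Other junction genes, taken from a list of 76 that are not among the 33, were counted in the same way. Of 35 above the floor, 0 were at least 2-fold different from vector on either nm23 array, with medians of -0.01 for both, beside 2.14% higher and 1.73% lower of all genes with nm23-H1 and 3.59% and 3.61% with nm23-H2. With nm23-H1, 0 were 1.5-fold higher and 2 (5.71%) lower, PARD3 and LLGL1, which encode polarity proteins, beside 8.63% and 7.53% of all genes. PARD3 and LLGL1 were at the floor with nm23-H1, so their differences of -0.82 and -0.86 are bounds. A further PARD3 probe set, marked for possible cross-hybridisation, had 27.1, 79.8 and 95.0 signal units on the nm23-H1, nm23-H2 and vector arrays and gave -1.74, also a bound, so by that probe set PARD3 was more than 2-fold lower. With nm23-H2, 2 (5.71%) were 1.5-fold higher and 5 (14.3%) lower, near the 10.6% and 14.2% of all genes. The higher ones were SYMPK (59.4 against 34.4 signal units on the vector array) and PRKCZ, the atypical protein kinase C of the polarity complex (243 against 150). The lower ones were ARHGAP32, LLGL1 and the claudin genes CLDN6, CLDN9 and CLDN11, each under 60 signal units. ARHGAP32, LLGL1 and CLDN6 were at the floor with nm23-H2, so their differences are bounds. CDH2, N-cadherin, the cadherin that often replaces E-cadherin in mesenchymal cells, had 24.7, 29.7 and 37.5 signal units on the nm23-H1, nm23-H2 and vector arrays.

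Regulators of junction genes and the filament proteins bound to desmosomes formed another list. Of 27 above the floor, 1 (3.70%) was at least 2-fold higher and 4 (14.8%) lower with nm23-H1, beside 2.14% and 1.73% of all genes. With nm23-H2, 0 were higher and 2 (7.41%) lower, beside 3.59% and 3.61%. Between the nm23 arrays, 2 (7.41%) were at least 2-fold higher with nm23-H1 and 2 (7.41%) lower, beside 3.76% and 3.81%. As this list too was chosen with earlier results of these data known, its shares are a description alone. OVOL2, a repressor that maintains epithelial identity, had 193 signal units with nm23-H1, 144 with nm23-H2 and 75.2 with vector, 2.57-fold (nm23-H1) and 1.92-fold (nm23-H2) above vector. OVOL2 lies at 18024152 to 18059188 on chromosome 20, where its 50 neighbours had a median difference of 0.95 with nm23-H1 and 0.04 with nm23-H2. The part of this block in its nm23-H1 value was not tested. Among repressors of E-cadherin, SNAI2 had 144, 205 and 211 signal units on the nm23-H1, nm23-H2 and vector arrays, with differences of -0.55 and -0.04. TWIST1 was above the floor on the vector array alone (43.6), and SNAI1 and ZEB1 were below it on all 3. TP63 was not analysed here.

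The intermediate filament genes showed separate patterns. KRT5 and KRT14, the keratins that desmosomes anchor in basal cells, differed from vector by -0.12 and -0.14 with nm23-H1 and by 0.33 and 0.39 with nm23-H2. KRT8, a keratin of simple epithelium, had 496 signal units with nm23-H1, 660 with nm23-H2 and 1349 with vector, 2.72-fold and 2.04-fold lower than vector. Its partner KRT18 had 1656, 3032 and 3492 signal units on the nm23-H1, nm23-H2 and vector arrays, 2.11-fold lower with nm23-H1 and within 1.5-fold with nm23-H2. KRT8 and KRT18 were each read by a probe set marked for possible cross-hybridisation. VIM, vimentin, was above the floor on the vector array alone (72.4 signal units), at least 2.55-fold lower on both nm23 arrays. For KRT8 and VIM alike, both differences rest on the same vector value. DST, a plakin of hemidesmosomes, had 49.6, 72.1 and 111 signal units on the nm23-H1, nm23-H2 and vector arrays, 2.25-fold lower with nm23-H1, but its other 2 probe sets above the floor gave -0.15 and 0.11.

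The 2-fold differences of junction genes were recomputed under other choices of scaling, floor and probe set. CLDN1 was between 0.98 and 1.21 with nm23-H1 against vector over 9 alternatives, and under 2-fold in 1 of them, with 16 units added in place of a floor. CLDN4 was between 0 and 1.12 over 10, and under 2-fold in 2 of them, that one (0.77) and the floor at the 70th percentile. With nm23-H2, CLDN4 was at least 2-fold higher than vector with the values as deposited (1.15) and with quantile normalization (1.01). In nm23-H1 against nm23-H2, CLDN1 was between 0.85 and 1.17, GJB5 between -1.79 and -1.41, PKP3 between -1.49 and -0.67 and CXADR between 0.04 and 1.27. In that comparison CXADR was under 2-fold in 4 of 10 alternatives, CLDN1 in 2 of 9 and PKP3 in 1 of 9.

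**Figure D4:**
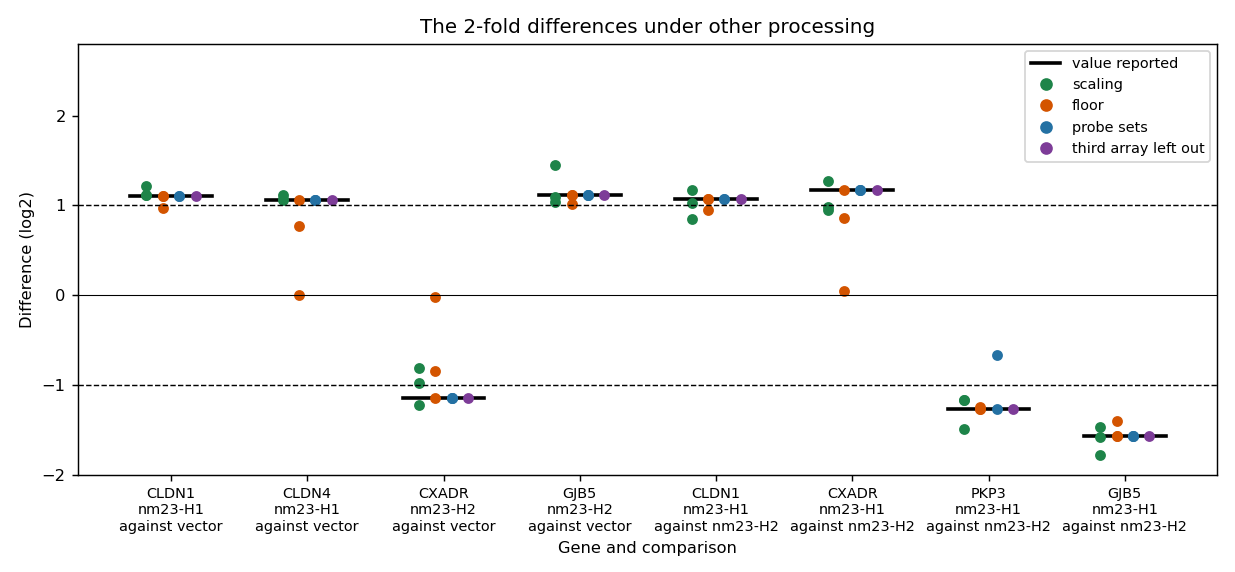
Log2 difference of each junction gene that was at least 2-fold different, by gene and comparison. Black bars are the values reported, points the alternatives (green scaling, orange floor, blue probe sets, purple the third array left out), and dashed lines 2-fold. GJB5 stays beyond 2-fold in all 10 alternatives of both comparisons, while CXADR and CLDN4 reach about 0 with the floor at the 70th percentile.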

How the data were processed

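Total RNA from 3 stably transfected CAL 27 populations was hybridised to 1 Affymetrix array each. Per the submitters' processing notes the authors used MAS5, and the deposited table holds its intensity values on a linear scale. Version, scaling target and detection calls are not given in the sources used here. Arrays were scaled (nm23-H1 by 1.03, nm23-H2 by 0.881, vector by 1.11) to a common mean between their 2nd and 98th percentiles. A floor was set at the pooled median (28.3) before log2 was taken. For each gene the probe set used was the brightest by mean signal, those ending in _x_at last. Symbols came from the platform annotation (19071 probe sets with 1 symbol, 1043 with several, 2169 with none), and positions from GRCh38.p14.

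Genes were counted at 2-fold and at 1.5-fold. Probe error compares a gene's brightest 2 probe sets: the SD over genes of how far their log2 differences lie apart, over the square root of 2. It covers neither cultures, clones nor hybridisations. All junction genes are named. Of other genes, those 2-fold different from vector with a brighter array at or above the 70th percentile (66.2) are named, and 9 whatever their values (SNAI1, SNAI2, ZEB1, TWIST1, CDH2, VIM, TP63, KRT5, KRT14). PARD3, LLGL1, ARHGAP32, SYMPK, PRKCZ, COL1A1 and the claudin genes outside the list were named after their values were seen. Motifs, the third array left out and the probe set brightest by mean log2 were chosen after seeing the data. Members, lists and settings were chosen with earlier results of these data known. Steps were tested on simulated data. Python 3.11.15, numpy 2.4.6, pandas 2.3.3 and matplotlib 3.10.9 were used.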

Additional observations from a re-analysis of the deposited data

How the results depend on the processing

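No paired analysis was possible because each construct had 1 array. Counts of junction genes at least 2-fold different (2 with nm23-H1 and 2 with nm23-H2 against vector, 4 for nm23-H1 against nm23-H2) became 6, 6 and 7 at 1.5-fold. For nm23-H1 against vector they were 0 of 24 with 16 added, 1 of 15 with probe sets specific by name and 1 of 19 with a floor at the 70th percentile. Of all genes, these settings gave 2.32%, 2.16% and 1.43% higher, and 1.95%, 1.55% and 1.19% lower. For nm23-H2 against vector they were 4 of 28 with a floor at the 25th percentile, where 5.95% of all genes were higher and 9.25% lower. They were 1 of 24 with 16 added and 1 of 19 with a floor at the 70th. Of all genes, these 2 settings gave 3.51% and 3.82% higher, and 4.01% and 2.23% lower. For nm23-H1 against nm23-H2 they were 2 with the values as deposited, with 16 added and with probe sets specific by name, which left 15 junction genes to measure. Of all genes, these settings gave 2.15%, 3.84% and 3.56% higher, and 6.28%, 3.59% and 3.48% lower. In that comparison they were 6 of 28 with a floor at the 25th percentile, beside 10.3% of all genes higher and 6.07% lower. The median for nm23-H1 against vector was -0.15 with the floor at the 70th percentile. For nm23-H2 against vector it was 0.36 as deposited, -0.067 with a common median and -0.16 with probe sets specific by name. For nm23-H1 against nm23-H2 it was -0.20 as deposited, 0.13 with a 25th-percentile floor and, by name-specific probe sets alone, 0.14. Medians of all genes for nm23-H2 against vector were 0.17 as deposited and -0.13 with a common median.

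Counts over other junction genes (35 above the floor) and regulators (27) were 5, 2 and 4. They were 12, 19 and 18 at 1.5-fold, beside the shares of all genes given above. With a floor at the 25th percentile they were 15, 10 and 12. At that floor, 6.17%, 5.95% and 10.3% of 10689 genes were higher, and 5.20%, 9.25% and 6.07% lower. With probe sets specific by name they were 1, 1 and 1, beside 2.16%, 3.38% and 3.56% of 4912 genes higher and 1.55%, 3.40% and 3.48% lower. Against vector, a floor at the 70th percentile gave 3 with nm23-H1 and 1 with nm23-H2. They were 3 for nm23-H1 against vector with the mean of probe sets, and 5 and 9 as deposited for nm23-H2 against vector and nm23-H1 against nm23-H2. The causes were not tested. Of single junction genes, 0 at least 2-fold different changed sign. Signals near the floor, CLDN4, CXADR and GJA1 among them, limit what can be measured.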
